A study of Mus musculus with 6 samples.

Results

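The collagen genes of the mouse are those with symbols of the form Col, a number, a and a number, for the collagen type and its chain. Every such symbol in the gene list of 6 single-cell libraries was taken if it had at least 1 unique molecular identifier (UMI, a tag by which each captured RNA molecule is counted once) in any library. All 44 symbols of this form passed, of 23399 genes detected in the series, and the rarest, Col9a2, had 1 UMI. They were described in 3 classes of cells set by UMI limits. Tumour-like cells had at least 5000 UMIs, at most 1 UMI of the leukocyte genes Ptprc and Tyrobp together and at most 2 of Col1a1. Col1a1-high cells, meant to be fibroblasts, had at least 10 UMIs of Col1a1 and at most 1 of Ptprc and Tyrobp. Immune cells had at least 2 UMIs of Ptprc and Tyrobp together, at least 3 of them per 10000 UMIs of the cell and at most 2 of Col1a1.

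The libraries came from subcutaneous tumours of YUMMER1.7, a mouse melanoma line derived by ultraviolet irradiation, in male C57Bl/6 mice aged 6 to 8 weeks. Sedentary mice (libraries 1, 2 and 3) were compared with exercised mice (libraries 5, 6 and 8), which ran at 12 m/min for 45 minutes a day on 14 days in a row. Both groups share the injected line and an immunocompetent host, whose own stroma and leukocytes are in the tumour. Whole tumours were dissociated with collagenase H and DNase, and RNA was counted from its 3' end.

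A library held 97426009 to 131778565 UMIs, and 51529 cells were kept, 7127 to 9832 per library. Sedentary 2 and exercise 5 stood apart: the median kept cell held 6490 and 5895 UMIs there and 10489.5 to 12426 elsewhere, and 39.7% and 43.4% of cells were immune there and 17.1% to 24.4% elsewhere. Any pair of libraries shared 16 to 29 cell barcodes. The tumour-like class held 28377 cells, the immune class 13997 and the Col1a1-high class 138, while 9017 cells fell in no class. The labels do not say that the libraries came from separate animals, so the p-values below measure only the spread between these samples. Levels are in CPM, the UMIs of a gene per 1000000 UMIs of all genes, summed over the cells of a class in 1 library. A captured molecule gives 1 UMI whatever its length, so CPM is not scaled by gene length. The captured part of a gene's RNA is not known and may differ between genes. Ratios between genes below are therefore ratios of counted molecules.

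Collagens are proteins whose chains wind around each other in a triple helix. Fibrillar collagens such as types I, III and V form the fibres of connective tissue, type IV forms the network of basement membranes, and type VI forms beaded microfilaments around cells. Type I is usually built from the chains of Col1a1 and Col1a2 together, whereas type III holds the Col3a1 chain alone. Fibroblasts are the textbook source of types I, III and VI, and endothelial cells of type IV.

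The start regions of 4 members are shown because their RNAs are set side by side below. Col4a1 and Col4a2 encode the chains of the common type IV trimer and lie head to head on chromosome 8, with starts 21 bases apart on opposite strands, so that their windows share 78 bases. Col3a1 and Col1a2 were the most abundant members in tumour-like cells. The windows are from RefSeq on GRCm38.p6 and run from 250 bases before the start to 50 bases after it. The Col4a1 window is chr8:11312777-11313076 on the minus strand and the Col4a2 window chr8:11312555-11312854 on the plus strand. The Col1a2 window is chr6:4505368-4505667 on the plus strand, inside the GENCODE M21 gene model, and the Col3a1 window chr1:45311288-45311587 on the plus strand. Capitals mark, on either strand, the TATA box letters TATAAA, the CAAT box letters CCAAT and the GC box letters GGGCGG.
Col4a1: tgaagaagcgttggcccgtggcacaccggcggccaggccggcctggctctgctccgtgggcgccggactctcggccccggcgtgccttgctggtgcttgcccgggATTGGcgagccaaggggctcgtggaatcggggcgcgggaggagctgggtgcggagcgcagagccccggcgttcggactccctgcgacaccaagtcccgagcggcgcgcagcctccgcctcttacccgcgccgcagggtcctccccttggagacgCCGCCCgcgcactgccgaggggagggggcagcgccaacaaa
Col4a2: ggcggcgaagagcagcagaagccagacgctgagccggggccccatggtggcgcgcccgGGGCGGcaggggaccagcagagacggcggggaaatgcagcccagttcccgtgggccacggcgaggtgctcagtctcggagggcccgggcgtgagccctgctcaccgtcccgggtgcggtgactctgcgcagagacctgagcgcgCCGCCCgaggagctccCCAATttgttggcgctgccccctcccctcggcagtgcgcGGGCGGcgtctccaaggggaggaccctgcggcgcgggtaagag
Col1a2: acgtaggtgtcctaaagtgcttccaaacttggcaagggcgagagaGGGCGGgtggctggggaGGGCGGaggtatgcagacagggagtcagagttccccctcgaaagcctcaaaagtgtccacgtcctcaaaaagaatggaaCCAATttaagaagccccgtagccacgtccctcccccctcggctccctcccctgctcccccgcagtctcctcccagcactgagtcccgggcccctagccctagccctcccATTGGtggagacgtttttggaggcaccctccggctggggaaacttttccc
Col3a1: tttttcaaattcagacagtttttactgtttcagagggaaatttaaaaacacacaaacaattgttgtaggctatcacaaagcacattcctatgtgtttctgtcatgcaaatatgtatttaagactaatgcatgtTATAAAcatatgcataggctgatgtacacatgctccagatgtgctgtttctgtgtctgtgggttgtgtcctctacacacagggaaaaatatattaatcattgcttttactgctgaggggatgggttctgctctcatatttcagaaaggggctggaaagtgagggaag
The Col3a1 window held 1 TATAAA and neither of the other motifs. The Col1a2 window held 2 CCAAT and 2 GGGCGG matches and no TATAAA. The Col4a1 window held 1 CCAAT and 1 GGGCGG match and the Col4a2 window 1 and 3, with no TATAAA in either. Of all 32851 windows of this length in the table, 13.6% held TATAAA, 37.4% CCAAT and 35.7% GGGCGG. Of the 38 windows of the 35 members found in it, 13.2%, 34.2% and 60.5% did. A match describes letters and not a bound site. The members not matched were Col12a1, Col14a1, Col1a1, Col22a1, Col26a1, Col2a1, Col4a3, Col5a2 and Col9a3.

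Tumour-like cells held RNA of many collagen types in every library. The summed level of the 44 members was 4487 ± 398 CPM (SD, n = 6 libraries, as for all such means below). A mean of at least 100 CPM was found for 7 members, 10 lay between 10 and 100 CPM, 5 between 1 and 10 CPM and 22 below 1 CPM, among them Col6a5 with no UMI. This class gave 86.4% of all UMIs in kept cells, and 89.3% to 93.9% of the UMIs of each of the 7 leading members. Fibrillar members summed to 2149 ± 201 CPM, type VI to 1229.8 ± 209 CPM, types XV and XVIII to 823 ± 60.4 CPM and type IV to 179 ± 26.1 CPM. The label of the class held only in part. The pigment cell genes Dct, Mlana, Tyr and Sox10 were close to absent, with 9, 7, 5 and 2 UMIs in a total of 594882218. Cspg4 stood at 46.7 ± 7.36 CPM and Cdh2 at 52.1 ± 3.38 CPM. Of 10 melanoma markers 3 reached 10 CPM in the class, and the list summed to 149 to 177 CPM. Of 12 fibroblast markers 5 reached 10 CPM in the class, led by Dcn at 313 ± 113 CPM and Pdgfra at 110.1 to 158 CPM.

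Col3a1 (ENSMUSG00000026043, chr1:45311538-45349706, mm10), the type III chain, was measured in tumour-like cells at 1082, 860.1 and 1009.5 CPM in sedentary libraries 1, 2 and 3 and at 830.1, 821 and 830.1 CPM in exercise libraries 5, 6 and 8. Col1a2 (ENSMUSG00000029661, chr6:4504814-4541544), a type I chain, stood at 1010.2, 752 and 903 CPM in the former and 839, 866 and 886 CPM in the latter. The pair lay within the spread of each other, with 0.937 to 1.14 molecules of Col3a1 per molecule of Col1a2. Type V collagen starts and limits the growth of fibrils. Its chain Col5a2 stood at 182 ± 20.3 CPM, Col5a1 at 80.6 ± 8.55 CPM and Col5a3 at 87.0 ± 13.1 CPM, and the last pair lay within the spread of each other. There were 2.04 to 2.41 molecules of Col5a2 per molecule of Col5a1. Col11a1, a fibrillar chain best known from cartilage, stood at 10.2 ± 3.99 CPM, with sedentary 1 highest at 16.8 CPM, and Col2a1, the main cartilage collagen, had 5 UMIs.

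Col18a1 (ENSMUSG00000001435, chr10:77052178-77166548), a proteoglycan of basement membrane zones from which endostatin is cut, stood at 808, 831 and 800.2 CPM in the sedentary and 732, 780.4 and 904 CPM in the exercise libraries. Its level was close to that of Col1a2 and varied little between libraries. Its relative Col15a1 was far lower at 14.1, 14.8 and 13.8 CPM and 3.79, 18.8 and 16.5 CPM, with exercise 5 below all other libraries.

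Among the type VI chains, Col6a3 stood at 577, 640.4 and 505 CPM and at 556, 607 and 588 CPM, a narrow range. Col6a1 stood at 551, 364 and 458 CPM and 242, 589.6 and 494 CPM. Col6a2 stood at 249, 164 and 194 CPM and at 82.7, 265 and 253 CPM. Col6a1 and Col6a2 lie near each other on chromosome 10 and Col6a3 on chromosome 1, and exercise 5 was lowest for the first pair but not for Col6a3. Molecules of Col6a2 per molecule of Col6a1 ranged from 0.341 to 0.511. Those of Col6a3 per molecule of Col6a1 ranged from 1.03 to 2.29, with 2.29 in exercise 5 and 1.76 in sedentary 2. The other type VI chains, Col6a4, Col6a5 and Col6a6, had 6, 0 and 2 UMIs.

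The 6 type IV chains lie as 3 head-to-head gene pairs. Col4a1 (chr8:11198423-11312826) stood at 68.0, 60.7 and 70.6 CPM and at 66.2, 73.4 and 85.2 CPM, and Col4a2 (chr8:11312805-11449287) at 29.2, 25.7 and 27.8 CPM and 30.6, 31.7 and 37.6 CPM. The pair whose start regions are printed above kept a narrow ratio over libraries, 0.393 to 0.462 molecules of Col4a2 per molecule of Col4a1, a coefficient of variation of 5.26%. Col4a5 and Col4a6, on chromosome X with starts 1309 bases apart, stood at 58.7 ± 11.9 and 19.2 ± 5.54 CPM, with 0.263 to 0.371 molecules of Col4a6 per molecule of Col4a5 and a coefficient of variation of 12.3%. Col4a3 and Col4a4, with starts 72 bases apart on chromosome 1, had 5 and 259 UMIs. A narrow ratio was not particular to head-to-head pairs. For chains on different chromosomes the coefficient was 6.23% for Col5a2 per Col5a1, 8.55% for Col3a1 per Col1a2 and 36.6% for Col6a3 per Col6a1. Both chains of a ratio share a library and its cells, so these ratios are descriptions.

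Col16a1, a fibril-associated chain, was even over libraries at 61.2 ± 4.04 CPM. Col8a1, a chain of hexagonal networks in vessel walls and the eye, stood at 26.4 ± 7.23 CPM. Col12a1, Col27a1, Col28a1 and Col7a1 had means of 4.08 to 7.95 CPM. The transmembrane members Col13a1, Col17a1, Col23a1 and Col25a1 summed to 0.595 to 1.32 CPM. A count of 3 UMIs, the limit that a count of 0 allows, stood for 0.0263 to 0.0414 CPM per library, which covers counting error only.

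Col1a1 (ENSMUSG00000001506, chr11:94936224-94953042), the partner chain of Col1a2, was nearly missing from these cells. Its 2.97 CPM follows in part from the limit of 2 UMIs. With no limit on Col1a1 the mean was 27.1 CPM, between 9.72 and 73.4 CPM. Among non-immune cells of at least 5000 UMIs, 84.3% to 95.3% per library had no Col1a1 UMI, and in those cells Col1a2 stood at 852 ± 79.6 CPM and Col3a1 at 877 ± 102 CPM. Over whole tumours, to which no limit applies, Col1a1 stood at 19.6, 22.7 and 9.90 CPM in the sedentary and 61.3, 18.0 and 14.9 CPM in the exercise libraries. Whole tumours thus held 12.7 to 88.1 molecules of Col1a2 per molecule of Col1a1. The 138 Col1a1-high cells, with 0.290% of all UMIs, held 70.5% of those of Col1a1, 3.05% of those of Col3a1 and 2.29% of those of Col1a2.

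**Figure D1:**
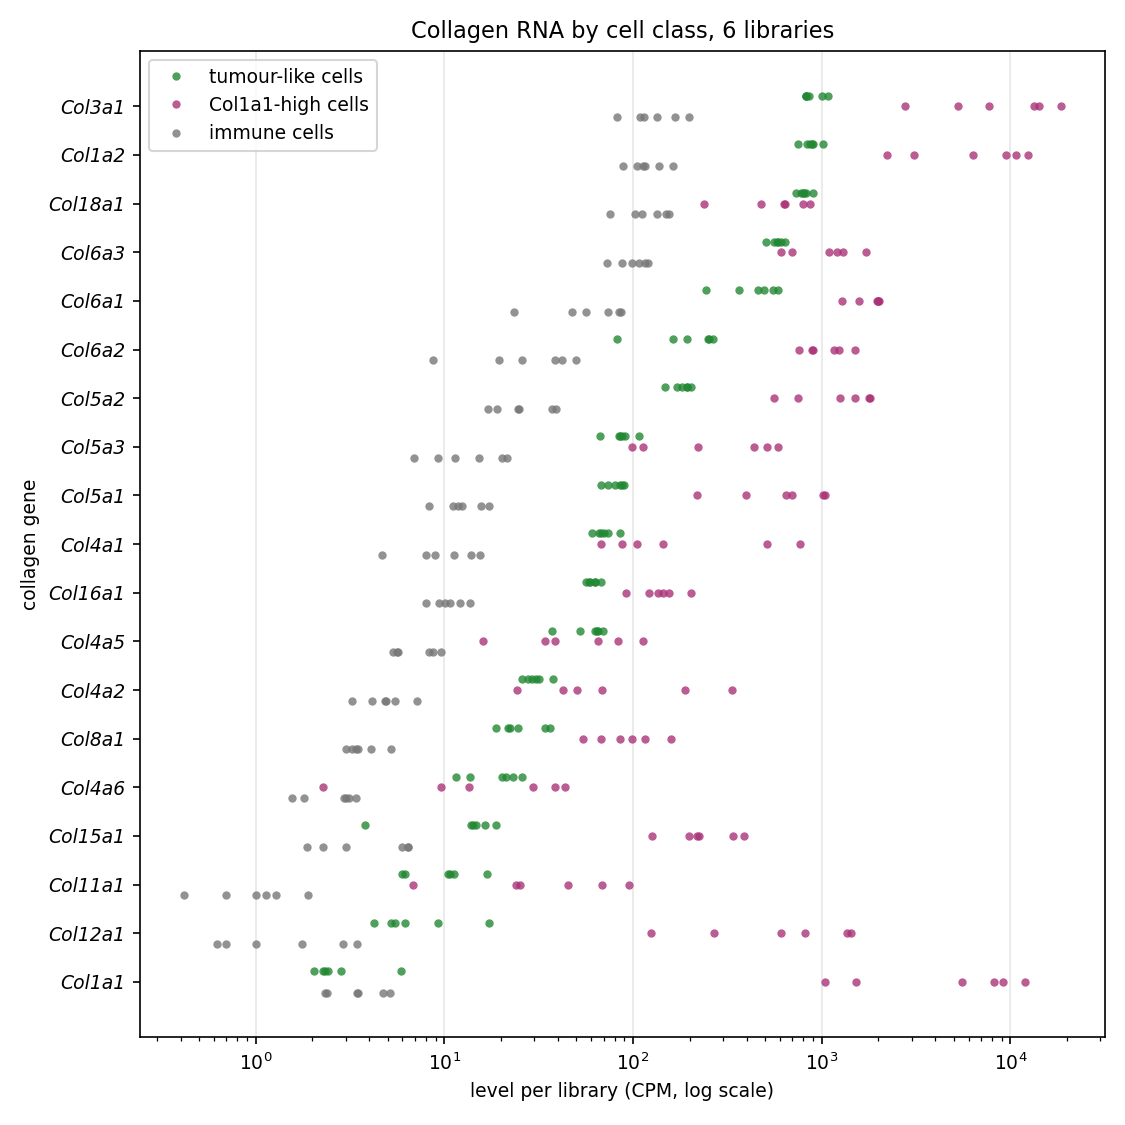
Level in CPM (log scale) of the 17 members with at least 10 CPM in tumour-like cells, and of Col12a1 and Col1a1, where each point is 1 of 6 libraries and colour gives the cell class. Immune cells lie below tumour-like cells for all 17 members in every library, and Col1a1-high cells lie above tumour-like cells for 11 of the 17 in every library; the rule sets Col1a1 itself.

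The Col1a1-high class held 31, 16 and 18 cells in the sedentary and 39, 23 and 11 in the exercise libraries, or 0.270 ± 0.109% and 0.282 ± 0.190% of kept cells (SD, n = 3 and 3). The groups overlapped, with an exact two-sided permutation p of 0.9, where 0.1 is the smallest the design allows. The name fibroblast held only in part. All 12 fibroblast markers were detected, but their summed level ranged from 2125 to 12062 CPM. Of these cells 69 had at least 20 Col1a1 UMIs per 10000 and are called Col1a1-rich here. They numbered 3, 11 and 5 in the sedentary and 35, 8 and 7 in the exercise libraries, which is 9.68%, 68.8% and 27.8% against 89.7%, 34.8% and 63.6% of the class. Pi16, a gene of adventitial fibroblasts, stood in them at 0, 561 and 0 CPM and 902, 185 and 1390.1 CPM, and Clec3b at 0, 284 and 0 CPM and 664, 171 and 523 CPM, so that both were without a UMI in sedentary 1 and 3. In Col1a1-rich cells the 12 fibroblast markers summed to 4024 to 14970 CPM and the 9 pericyte and smooth muscle markers to 60.7 to 3444 CPM. Dcn stood at 4012 ± 1966 CPM in Col1a1-rich cells and at 474 ± 224 CPM in the other 69, which had no UMI of Clec3b and 826 CPM of Col1a1. The class held 138 cells also when called doublets were kept, and the part of doublets in it was not tested.

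Fibrillar chains led in Col1a1-high cells. Col3a1 stood at 2748, 14132 and 5295 CPM in the sedentary and 18526, 7686 and 13299.6 CPM in the exercise libraries, 2.54 to 22.3 times the tumour-like level of the same library. Col1a2 stood at 2223, 10734 and 3086 CPM and 12400.4, 6324 and 9469 CPM, and Col1a1, which set the class, at 1041, 9119 and 1525 CPM and 11921, 5573 and 8198 CPM. Sedentary 1 and 3, with the smallest shares of Col1a1-rich cells, were lowest for all 3 genes. There were 1.04 to 2.13 molecules of Col1a2 per molecule of Col1a1 in the class and 0.690 to 1.25 in its Col1a1-rich cells, against 172 to 379 in tumour-like cells. Col5a2 stood at 562 to 1807 CPM, Col5a1 at 217 to 1046 CPM and Col5a3 at 98.2 to 584 CPM. Since Col1a1 chose the cells, these levels are descriptions and carry no test.

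Members outside the fibrillar group differed in how they were shared between the classes. Col12a1, which binds to the surface of fibrils, stood at 124, 1369 and 268 CPM and 1434, 820.1 and 611 CPM in Col1a1-high cells, against 7.95 ± 4.86 CPM in tumour-like cells. Col14a1, its relative, had 83.7% of its 484 UMIs in the 69 Col1a1-rich cells, at 0, 663 and 0 CPM and 709.6, 157 and 523 CPM, and none in the other Col1a1-high cells. It was thus found in the same libraries as Pi16 and Clec3b. All 32 UMIs of Col6a5 in the Col1a1-high class lay in Col1a1-rich cells too. The type VI chains Col6a1, Col6a2 and Col6a3 stood at 1801 ± 300.1, 1075 ± 273 and 1101 ± 406 CPM, all above tumour-like cells in 6 of 6 libraries. Col18a1 went the other way in 5 of 6 libraries, at 795, 477 and 862 CPM and 237, 629.8 and 638 CPM, 0.324 to 1.08 times the tumour-like level, and at 312 ± 276 CPM in Col1a1-rich cells. Col4a1 ranged from 67.6 to 768 CPM. Of the 17 members with at least 10 CPM in tumour-like cells, 11 were higher in Col1a1-high cells in all 6 libraries, 0 were lower in all and 6 were mixed. Here a count of 3 UMIs stood for 4.83 to 20.4 CPM, and 11 members had no UMI.

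Levels between the classes were graded. Non-immune cells of at least 5000 UMIs comprised 26884 cells with 0 Col1a1 UMIs, 1493 with 1 or 2, 505 with 3 to 9 and 132 with at least 10. Col3a1 stood at 877 ± 102, 1499 ± 204 and 2409.7 ± 235 CPM in the first 3 of these bins, and Col1a2 at 852 ± 79.6, 1362 ± 59.9 and 1848 ± 153 CPM. Col6a1 stood at 439 ± 126, 674 ± 159 and 1089.7 ± 259 CPM, and Col15a1 at 12.4 ± 4.73, 40.6 ± 18.3 and 92.7 ± 62.6 CPM. All 4 were higher at each step in each library. Col18a1, at 807 ± 58.0, 849 ± 52.5 and 842 ± 73.7 CPM, and Col6a3, at 579.6 ± 46.6, 571 ± 54.4 and 558 ± 39.5 CPM, moved by less than the spread between libraries. Cells with 3 to 9 Col1a1 UMIs had library medians of 9736 to 20287 UMIs against 15446 to 25616 in cells without. Col1a1 chose the bins, so the levels are descriptions. The part of depth and of doublets in them was not tested.

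**Figure D2:**
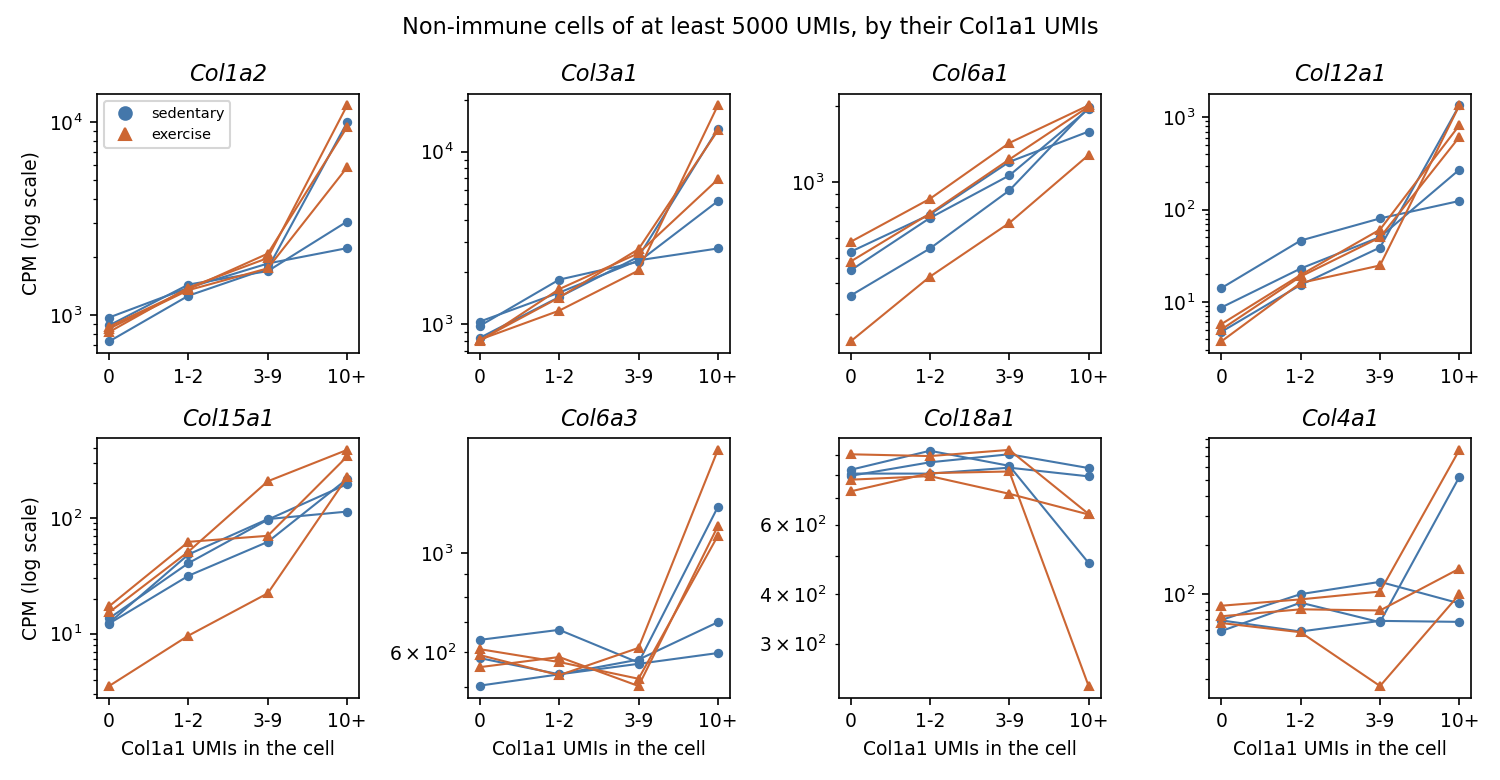
CPM (log scale) of 8 members in non-immune cells of at least 5000 UMIs, by the Col1a1 UMIs of the cell (0, 1-2, 3-9, 10+); each line is 1 library, coloured by group. Col1a2, Col3a1, Col6a1, Col12a1 and Col15a1 are higher at each step from 0 to 3-9 in every library, whereas Col18a1 and Col6a3 stay level there.

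Immune cells held the same members at a low level. The median over the 17 leading members was 0.106, 0.153 and 0.196 of the tumour-like CPM in the sedentary and 0.107, 0.134 and 0.181 in the exercise libraries, and all 17 were lower in immune cells in 6 of 6 libraries. T cells, which are not known as a collagen source, were set beside myeloid cells. After each cell was thinned to 2000 UMIs, 10.9% to 21.4% of T cells and 6.47% to 16.6% of myeloid cells had a Col3a1 UMI, against 60.8% to 74.2% of tumour-like cells. Unthinned, the shares were 14.7% to 30.8%, 17.0% to 33.7% and 92.7% to 97.4%, at median depths of 2737 to 3910, 5162 to 7173 and 15363 to 25456 UMIs. Thinning left out 585 T cells and 108 myeloid cells. For Col18a1 the thinned shares were 10.0% to 20.7%, 6.25% to 17.0% and 71.8% to 76.6%. For both genes the ranges of myeloid and T cells overlapped, so the myeloid shares of Col3a1 and Col18a1 are not read as expression. The part of free RNA in the immune levels of the other members was not tested. In immune cells 0.934 to 1.22 molecules of Col3a1 were found per molecule of Col1a2, close to tumour-like cells. Rare members were distributed in another way. Col14a1 stood at 0.251 to 2.20 CPM in immune cells, on 50 UMIs, and at 0.0175 to 0.0414 CPM in tumour-like cells, on 18, and was higher in immune cells in 6 of 6 libraries. Myeloid cells held 31 of these UMIs and T cells 2. Of 72 UMIs of Col11a2, a cartilage fibril chain, 54 lay in immune cells, 34 of them in myeloid cells and 2 in T cells. Col1a1, limited to 2 UMIs per cell in both classes, was 0.587 to 2.14 times as high in immune cells, above 1 in 5 of 6 libraries. The same limit allows a higher CPM in immune cells, whose library medians were 2964 to 3657 UMIs, so this ratio is not read as expression.

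Type IV chains led in endothelial cells. The limit of 3 UMIs of Pecam1, Cdh5 and Kdr together took in 1632 cells, but 1601 of these were also tumour-like cells, which held Cdh5 at 20.7 ± 10.1 CPM and Pecam1 at 0.652 ± 0.0598 CPM. The highest members in the 1632 cells were those of tumour-like cells: Col18a1, Col1a2, Col3a1, Col6a3 and Col6a1. A limit of 3 Pecam1 UMIs, set after these values were seen, left 21 cells, 2 to 8 per library, in which all 9 endothelial markers had means of at least 10 CPM. Col4a1 stood in them at 6414, 7135 and 5503 CPM and 1142, 2137 and 3671 CPM, and Col4a2 at 2996, 4006 and 2526 CPM and 812, 1526 and 1923 CPM. These levels were 17.3 to 118 and 26.6 to 156 times those of tumour-like cells, on 56 to 167 and 28 to 78 UMIs per library. Col15a1 was 8.13 to 55.0 times as high, on 50 UMIs in all, and Col18a1 stood at 791 ± 179.8 CPM, within the spread of tumour-like cells. With 2 to 8 cells per library the groups were not compared.

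The tumour-like cells themselves were not uniform. A bone-matrix state of 1864 cells, with at least 3 UMIs of Ibsp and Dmp1 together, was set beside the 16418 cells in neither of the states described here. Of the 17 leading members, 10 were higher in it in all 6 libraries, 2 were lower and 5 were mixed. Col6a3 stood at 1.54 to 1.76 times the level of the remaining cells, Col6a2 at 1.21 to 2.43 times and Col15a1 at 1.04 to 3.26 times. The paired Col4a1 and Col4a2 moved together, at 1.30 to 1.76 and 1.33 to 1.99 times. Col1a2 at 0.605 to 0.881 times and Col8a1 at 0.274 to 0.854 times were lower, whereas Col4a5 and Col4a6, the other leading type IV chains, were mixed.

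Dividing cells were 10561 with at least 3 UMIs of the proliferation genes Mki67 and Top2a together. Their CPM was lower for 12 of the 17 members in all 6 libraries, higher for 1 and mixed for 4. These are shares of the UMIs and not molecules per cell. Col3a1 stood at 0.439 to 0.616 times the level of the remaining cells, Col11a1 at 0.313 to 0.510 times, Col4a5 at 0.515 to 0.665 times and Col1a2 at 0.711 to 0.920 times. Col18a1 at 0.855 to 0.950 times was nearer to 1. Col6a3, at 1.05 to 1.27 times, was the only member of the 17 that was higher in every library. Dividing and bone-matrix cells had library medians of 24147 to 32511 and 16879 to 37443 UMIs against 13244 to 19342 in the remaining cells, 466 cells belonged to both states, and the part of depth in these ratios was not tested.

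**Figure D3:**
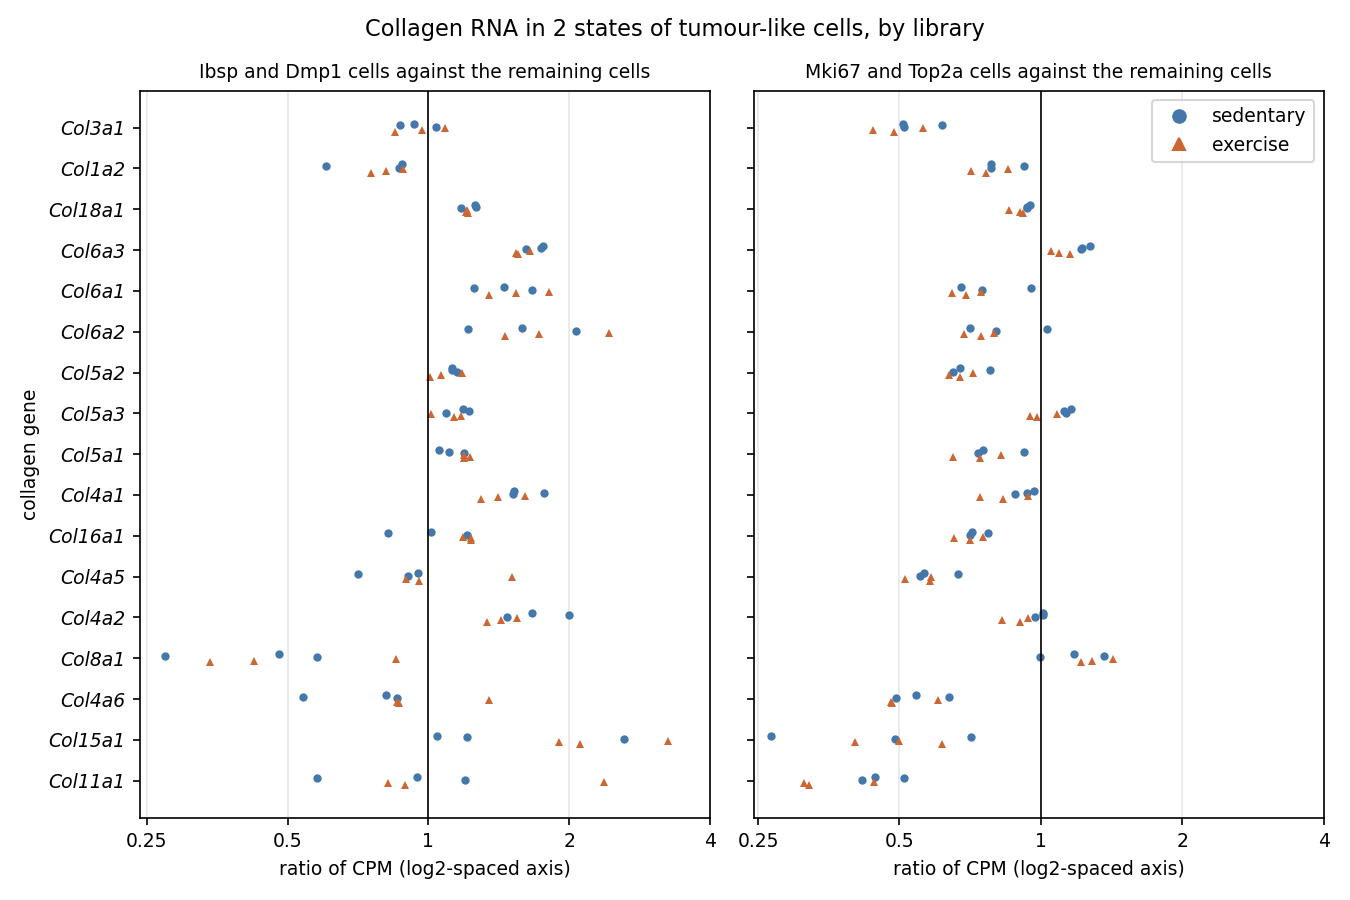
Ratio of CPM in bone-matrix cells (left) and in dividing cells (right) to the remaining tumour-like cells, for the 17 members with at least 10 CPM, on a log2-spaced axis; circles are sedentary and triangles exercise libraries, and the line marks a ratio of 1. In bone-matrix cells 10 members lie above 1 in all libraries, in dividing cells 12 lie below 1, and Col6a3 lies above 1 in both.

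Exercise was compared with the sedentary state on UMIs summed per library, with edgeR's quasi-likelihood test and Benjamini-Hochberg adjustment over all genes tested. No collagen gene passed an adjusted p of 0.05 in any of 4 sets of cells. Over whole tumours, 0 of 15482 genes were called (0%), with 413 at an unadjusted p under 0.05, and DESeq2 called 18 genes, none a collagen gene. Of the 44 members 32 were tested, and those not tested had means of at most 0.0547 CPM. A log2 fold change above 0 was found for 14 and below 0 for 18, with a median of -0.04 beside 0.01 over all genes. The groups did not overlap for 3.12% of all genes with exercise higher and for 3.68% with exercise lower, and for 0 and 1 of the members. That member was Col4a4, a kidney basement membrane chain, at 0.603, 0.596 and 0.489 CPM and 0.367, 0.411 and 0.394 CPM (log2 fold change -0.52, SE 0.21). Col3a1 (-0.25, SE 0.11) and Col12a1 (-0.55, SE 0.34) followed, and in the other direction Col4a2 (0.24, SE 0.15), Col7a1 (0.34, SE 0.22) and Col1a1 (0.84, SE 0.56), all with overlapping groups. Exercise 5 held 5679 of the 15731 Col1a1 UMIs, and without it the log2 fold change of Col1a1 was -0.05. The 12 fibroblast markers summed to 420.1 to 468 CPM in the exercise and 570.3 to 698 CPM in the sedentary libraries, and the 10 melanoma markers to 153 to 159 and 139 to 151 CPM, with no marker of either list at 0, and their part in these values was not tested. In whole-tumour sums, fewer cells of a type and less RNA per cell cannot be told apart.

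In tumour-like cells 0 of 14427 genes were called (0%), with 600 at an unadjusted p under 0.05, and DESeq2 called 32, none a collagen gene. Of the members 27 were tested, 7 with a log2 fold change above 0 and 20 below, with a median of -0.08 beside 0.00 over all genes. Col1a1, limited by the rule for these cells, is among the 20 and its value carries no test. An unadjusted p under 0.05 was found for 4 of them, and their adjusted p by edgeR was 0.999. Col3a1, with the values given above, stood at 827 ± 5.34 CPM in exercise and 984 ± 113 CPM in sedentary libraries (log2 fold change -0.25, SE 0.09, unadjusted p 0.0264 by edgeR). All exercise libraries lay below all sedentary ones, but the gap between 830.1 and 860.1 CPM was smaller than the SD of the sedentary group. Col4a4 was lower without overlap on few UMIs, at 0.571, 0.579 and 0.430 CPM and 0.317, 0.376 and 0.339 CPM (-0.60, SE 0.23). Col12a1 stood at 17.2, 5.22 and 9.25 CPM and 4.26, 6.22 and 5.49 CPM (-0.98, SE 0.38), with overlapping groups.

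In the other direction Col4a2 lay higher in exercise without overlap, at 33.3 ± 3.75 against 27.6 ± 1.75 CPM (0.27, SE 0.11). Its neighbour Col4a1 stood at 74.9 ± 9.60 against 66.4 ± 5.15 CPM (0.17, SE 0.12) and Col7a1, the chain of anchoring fibrils, at 6.15, 4.69 and 3.34 CPM against 3.22, 3.08 and 4.01 CPM (0.45, SE 0.23), both with overlapping groups. Over all genes 3.89% were higher and 4.6% lower in exercise without overlap, against 1 and 2 of the 27 members. Col18a1 stood at 805 ± 88.7 against 813 ± 15.7 CPM and Col6a3 at 584 ± 26.1 against 574 ± 67.7 CPM. The 12 fibroblast markers, none of them at 0, summed to 401 to 474 CPM in the exercise and 579 to 743 CPM in the sedentary libraries, with Dcn at 244, 215 and 218 and 375, 505 and 322 CPM. The 8 T and NK cell markers, none at 0, summed to 5.55 to 6.64 and 3.05 to 4.51 CPM. Both lists were without overlap, and their part in these values was not tested.

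**Figure D4:**
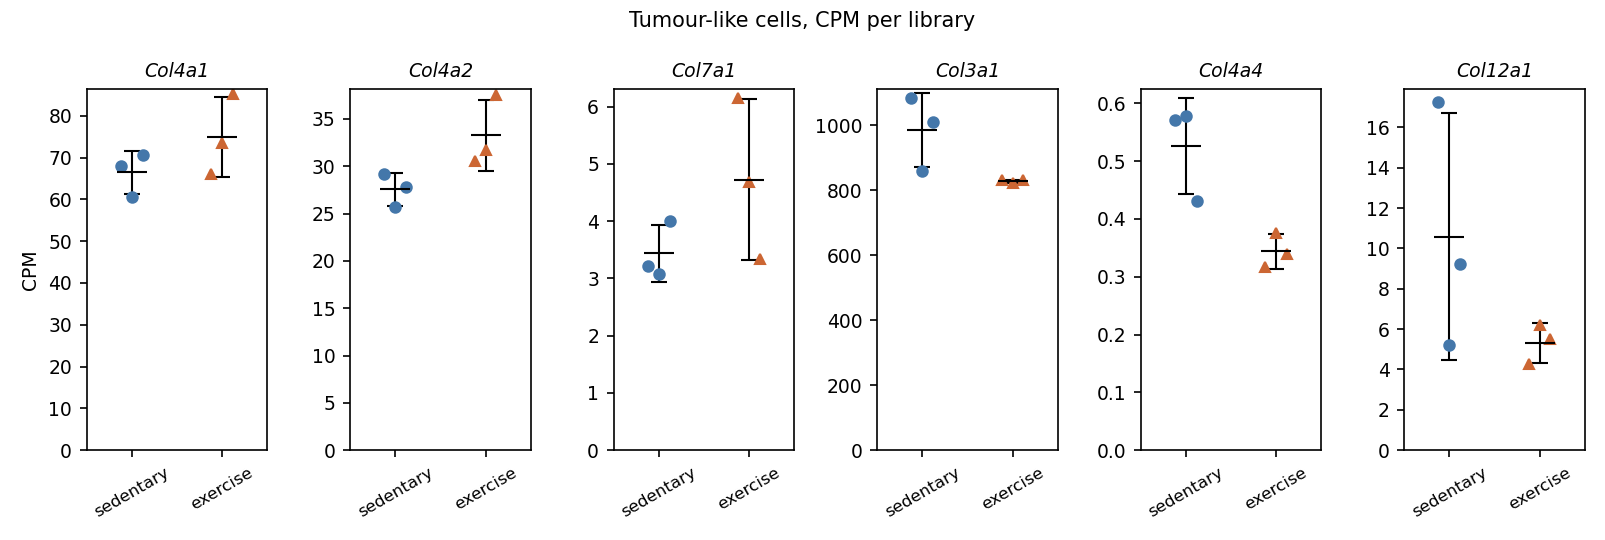
CPM in tumour-like cells of the 3 members with the smallest unadjusted p in each direction; each point is a library, and bars give the mean and SD of 3. The groups do not overlap for Col4a2, Col3a1 and Col4a4 and overlap for Col4a1, Col7a1 and Col12a1, and none passed the adjusted threshold.

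In immune cells 0 of 12156 genes were called (0%), with 434 at an unadjusted p under 0.05, and DESeq2 called 14, none a collagen gene. Of 19 members tested, 7 had a log2 fold change above 0 and 12 below, with a median of -0.12 beside -0.01 over all genes. No member separated the groups, against 5.31% of all genes higher and 2.95% lower in exercise. Col5a3 had the smallest p (log2 fold change -0.82, SE 0.34, unadjusted p 0.0414 by edgeR), at 11.5, 20.1 and 21.5 CPM and 6.93, 9.30 and 15.2 CPM with overlap. Col12a1 (-1.06, SE 0.63) and Col18a1 (-0.34, SE 0.25) followed. Col4a5 (0.27, SE 0.27), Col15a1 (0.47, SE 0.51) and Col1a1 (0.07, SE 0.36) led the other direction. Col1a1, limited by the rule for these cells, is among the 7 and its value carries no test. In immune cells 3 marker lists separated the groups, all lower in exercise. The 12 fibroblast markers, none at 0, summed to 149 to 158 CPM in exercise against 172 to 207 CPM, the 6 chondrocyte and bone markers, 1 of them at 0, to 51.8 to 56.2 against 63.5 to 67.4 CPM and the 5 neutrophil markers, none at 0, to 133 to 835 against 922 to 2573 CPM. Their part in the collagen values was not tested.

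In Col1a1-high cells 0 of 4188 genes were called (0%), with 174 at an unadjusted p under 0.05, and DESeq2 called 0. Of 22 members tested, 16 had a log2 fold change above 0 and 6 below, with a median of 0.56 beside -0.02 over all genes. Col1a1, which chose the cells, is among the 16 and its value carries no test. The groups did not overlap for 3 members, all higher in exercise, against 3.99% of all genes higher and 3.92% lower. Col23a1, a transmembrane collagen, stood at 3.22, 38.6 and 7.24 CPM and 112, 65.6 and 109 CPM on 97 UMIs (log2 fold change 2.93, SE 0.73, unadjusted p 0.00401 and adjusted p 0.922 by edgeR). Col27a1, a fibrillar chain, stood at 17.7, 24.1 and 7.24 CPM and 52.5, 36.1 and 88.3 CPM (1.77, SE 0.51). Col15a1 stood at 217, 198 and 127 CPM and 224, 338 and 387 CPM (0.77, SE 0.29). For each of the 3 every exercise library lay above every sedentary one, for Col15a1 by little. Col27a1 passed the low-count filter only through the exercise libraries, where it was high, and Col23a1 through these and sedentary 2. Both were thus selected in part by the values compared, so their fold changes and lack of overlap in this fit are descriptions. In the other direction Col4a5 (-1.13, SE 0.51), Col18a1 (-0.54, SE 0.37) and Col6a1 (-0.10, SE 0.21) had overlapping groups.

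The share of Col1a1-rich cells, given above, was lowest in sedentary 1 and 3, which were also lowest for Col23a1 and Col27a1. Over the other libraries neither gene kept the order of the share, which was 68.8% in sedentary 2 and 34.8% in exercise 6. Sedentary 2 had 38.6 CPM of Col23a1 and 24.1 CPM of Col27a1, whereas exercise 6 had 65.6 and 36.1 CPM. A count of 3 UMIs equals 14.5 and 9.84 CPM there, so the Col27a1 values rest on few molecules. Col15a1 did not keep the order either, since sedentary 1 had 217 CPM and sedentary 2 had 198 CPM. Its lowest exercise value was that of exercise 5, where the share was highest. These orders are descriptions. Dcn stood in the class at 813, 3644 and 749.7 CPM and 5327, 1191 and 3070.2 CPM, the 12 fibroblast markers summed to 2125 to 9765 CPM in the sedentary and 4559.6 to 12062 CPM in the exercise libraries, and 29.1% of all Col23a1 UMIs lay in Col1a1-rich cells. The 9 pericyte and smooth muscle markers summed to 25.4 to 872 and 468 to 869 CPM, and both lists overlapped between the groups. The 6 chondrocyte and bone markers, 2 of them at 0, were lower in exercise without overlap, at 93.6 to 169.8 against 221 to 660.3 CPM. The 9 macrophage and monocyte markers, 1 of them at 0, were higher without overlap, at 40.8 to 52.5 against 8.05 to 33.7 CPM. Without sedentary 2, the sedentary library with the largest Col1a1-rich share, edgeR called 87 of 4907 genes and 3 of 24 members. Among these were Col1a2 (log2 fold change 1.87) and Col23a1 (4.33). Without sedentary 1 Col23a1 was not called and stood at 2.11. Without sedentary 2 and exercise 5 edgeR called 77 of 4364 genes and 5 of 24 members, among them Col12a1, Col14a1, Col1a2 and Col23a1. In both fits without sedentary 2, Col23a1 passed the low-count filter only through the exercise libraries, as did Col14a1 in the second. Col1a1 was called both times too, but chose the cells, and Col1a2 and Col12a1 were higher in cells with more Col1a1 UMIs. Without sedentary 2 the Col1a1-rich share no longer overlapped, at 9.68% and 27.8% in sedentary and 34.8% or more in exercise libraries. These calls and the share cannot be told apart. Within Col1a1-rich cells alone Col23a1 stood at 0, 63.2 and 20.2 CPM and 131, 256 and 190.1 CPM, from 3 to 35 cells per library, and no test was run there. A count of 3 UMIs stood for 91.5 CPM in sedentary 1 and 60.7 CPM in sedentary 3, above the values of both. The part of the Col1a1-rich share and of the other markers in the differences was not tested.

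**Figure D5:**
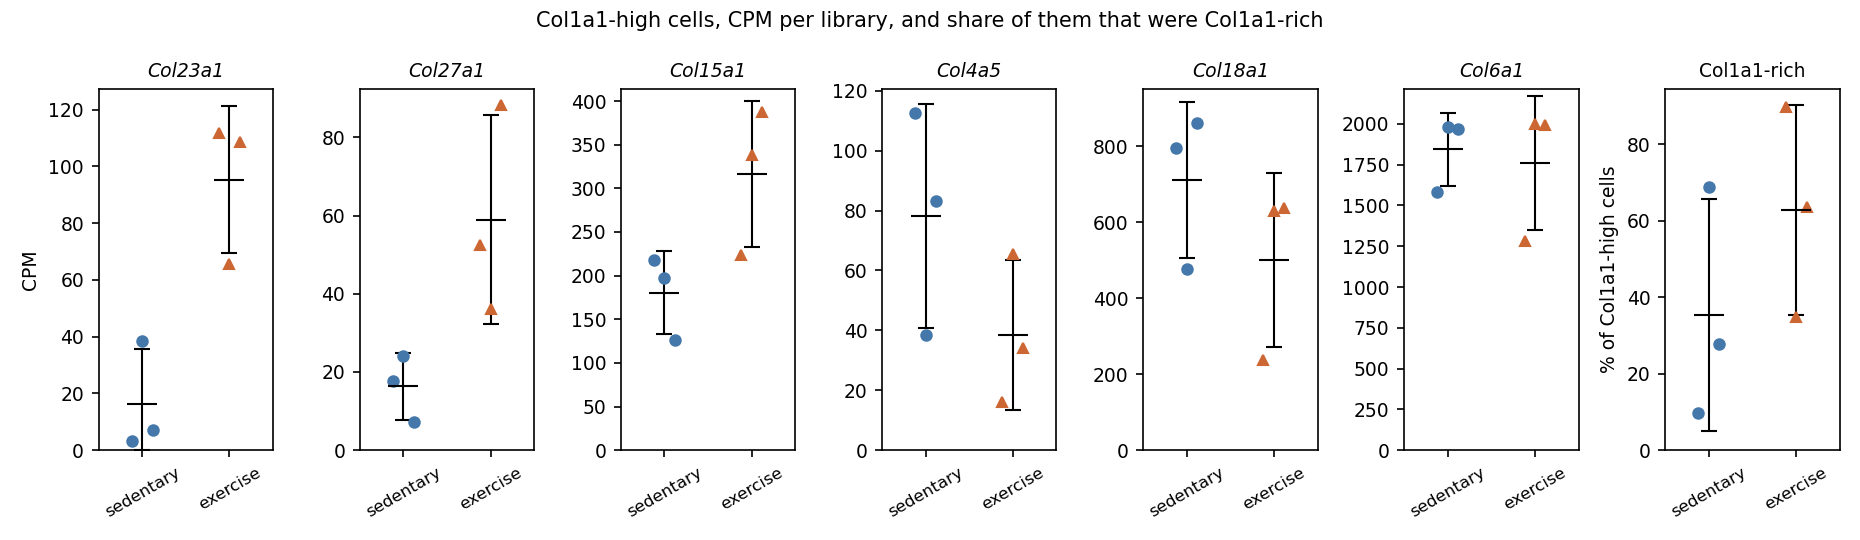
CPM in Col1a1-high cells of 6 members and, in the last panel, the percent of these cells that were Col1a1-rich; each point is a library of 11 to 39 such cells, and bars give the mean and SD of 3. Exercise libraries lie above sedentary ones for Col23a1, Col27a1 and Col15a1, and the groups overlap for the other members and for the Col1a1-rich share.

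Genes that modify, fold, export, trim and crosslink collagen chains were read from the same fit in tumour-like cells. Of 33 such genes 30 were tested, 16 with a log2 fold change above 0 and 14 below, with a median of 0.02. None was called by edgeR or DESeq2, and 2 had an unadjusted p under 0.05 by edgeR, beside 600 of all 14427 genes. The groups did not overlap for 3 of the 30 with exercise higher and 1 with exercise lower. Over all genes the shares were 3.89% and 4.6%. Adamts2, which removes the amino-terminal propeptide of procollagen, stood at 2.87 ± 0.378 CPM in exercise against 4.21 ± 0.544 CPM (-0.55, SE 0.15), and Loxl3, a crosslinking enzyme, at 36.2 ± 4.66 against 28.9 ± 2.77 CPM (0.32, SE 0.13). The groups did not overlap for Adamts2 and overlapped for Loxl3. P4ha1, a subunit of prolyl 4-hydroxylase, stood at 161 ± 18.1 against 204 ± 36.0 CPM and Plod1, a lysyl hydroxylase, at 85.0 ± 11.5 against 100.5 ± 9.18 CPM, both with overlap. Pcolce, an enhancer of carboxy-terminal trimming, stood at 182 ± 4.32 against 164 ± 11.8 CPM and its relative Pcolce2 at 9.29 ± 5.52 against 5.22 ± 0.606 CPM, both without overlap.

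Of 14 genes of collagen receptors and related integrin chains 12 were tested in tumour-like cells, 7 with a log2 fold change above 0 and 5 below. None was called by edgeR or DESeq2 or had an unadjusted p under 0.05. The groups did not overlap for 1 of the 12, higher in exercise, beside 3.89% of all genes higher and 4.6% lower. Mrc2, an uptake receptor for collagen, stood at 56.5 ± 1.34 CPM in exercise against 51.1 ± 0.703 CPM, without overlap (0.14, SE 0.07). Mrc1 (0.38, SE 0.24) and the integrin chain Itga3 (0.19, SE 0.25) were next in that direction. Itgb1, the shared chain of the collagen-binding integrins, stood at 494 ± 54.2 against 527 ± 22.5 CPM (-0.10, SE 0.10). Its partners Itga1 (-0.23, SE 0.25) and Itga6 (-0.20, SE 0.26) were the others with the smallest p below 0, all with overlapping groups.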

How the data were processed

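Single-cell RNA-seq of 6 whole tumours (10x 3' libraries) was analysed. The authors deposited UMI counts per gene and cell barcode, not normalized, as 1 matrix per library. The submitters' processing notes name Cell Ranger 6.1.2 and mm10, whereas the file headers give software version 3.1.0, and the files do not settle which was used. Each library held 97426009 to 131778565 UMIs.

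A barcode was kept if it held 300 genes or more and 500 UMIs or more, of which no more than 20% were mitochondrial. Doublets called by Scrublet (scanpy 1.11.5, seed 1) were removed, 0.946% to 2.42% per library. Classes were cut by the UMI limits given with the results. The members and gene lists were chosen with earlier results of these data known. UMIs were summed per library and class, and exercise was compared with sedentary by edgeR 4.0.16 (TMM scaling, filterByExpr, quasi-likelihood F-test, Benjamini-Hochberg, threshold 0.05) in R 4.3.3, and by DESeq2 1.42.0 as an alternative. A library entered the test of Col1a1-high cells with at least 10 such cells. The fit was tested on simulated data. Levels between classes and states were described without a test. Shares of cells were computed on cells thinned to 2000 UMIs.

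Members named with values had a mean of at least 10 CPM in tumour-like cells, were among the 12 highest in Col1a1-high or the 5 highest in endothelial-rule cells, or had 1 of the 3 smallest p-values in either direction of a comparison. Other members named (Col14a1, Col11a2, Col2a1 and chains of types IV and VI among them) were chosen after their values were seen. Of the processing and receptor genes, the 3 with the smallest p in each direction in tumour-like cells were named. Gene positions are from GENCODE M21, where all 44 members matched by identifier. Alternatives changed the tool, scaling, low-count filter, mitochondrial limit, doublet removal, class limits and libraries. Python 3.11.15 with numpy 2.4.6, scipy 1.17.1, pandas 2.3.3, anndata 0.12.19 and matplotlib 3.10.9 was used.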

Additional observations from a re-analysis of the deposited data

How the results depend on the processing

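Over all settings run, 456 values stayed on the same side of their threshold, within their spread or, for counts of genes, at or near the main count. Another 12 counts or levels moved, 10 values turned sign and 4 fold changes passed the threshold only in the alternative. No collagen gene was called in whole tumours, tumour-like cells or immune cells under any setting run there (13, 16 and 14 settings). With DESeq2, 18 genes were called in whole tumours, 32 in tumour-like cells and 14 in immune cells, in place of 0. With no filter on low counts, edgeR called 2 of 22173 genes in tumour-like cells, 9 of 19532 in immune cells and 188 of 14059 in Col1a1-high cells. Of 33 collagen genes tested in the last, 7 were called (Col14a1, Col1a2, Col23a1, Col27a1, Col3a1, Col6a5 and Col1a1). Their log2 fold changes were 2.89 for Col23a1 and 1.74 for Col27a1. Leaving out 1 library at a time gave 0 to 87 genes and 0 to 3 collagen genes in Col1a1-high cells. Both were highest without sedentary 2, at 87 of 4907 genes and 3 of 24 collagen genes (Col1a2, Col23a1 and Col1a1). Col23a1 ranged from 2.11 without sedentary 1 to 4.33 without sedentary 2. Without sedentary 2 and exercise 5, an alternative chosen after seeing the data, 77 of 4364 genes and 5 of 24 collagen genes were called. These 5 were Col12a1, Col14a1, Col1a2, Col23a1 and Col1a1, with Col23a1 at 4.09. Col1a1 chose these cells, so its calls there are drawn from the value that selected them and carry no test. Without sedentary 2 the groups also no longer overlapped in the Col1a1-rich share. The calls of other collagen genes made without it cannot be told apart from that share. Signs turned only for values near 0 or carried by 1 library. The difference in the share of Col1a1-high cells, exercise minus sedentary, ranged from -0.0909 to 0.0967 percentage points, at -0.0113 without sedentary 2, -0.0277 without sedentary 3 and -0.0909 without exercise 5. Log2 fold changes ranged from -0.051 to 1.16 for Col1a1 in whole tumours, from -0.22 to 0.35 for Col1a1 in immune cells (-0.15 without sedentary 2, -0.22 without exercise 8) and from -0.21 to 0.049 for Col6a1 in Col1a1-high cells. Col1a1 in immune cells also turned to -0.015 with called doublets kept and to -0.11 without sedentary 2 and exercise 5, where Col6a1 in Col1a1-high cells turned to 0.16. The rule for immune cells limits Col1a1, so its values there carry no test. With no limit on Col1a1 its mean in tumour-like cells was 27.1 CPM. The causes were not tested. No paired analysis was possible because the groups share no replicate numbers. Stricter limits for Col1a1-high cells (20 Col1a1 UMIs, or 20 per 10000) were not fitted, since only 1 library per group held 10 such cells. Depth limits the small sets. There 3 UMIs stood for 4.83 to 20.4 CPM in Col1a1-high and 8.00 to 91.5 CPM in Col1a1-rich cells, and the 21 Pecam1 cells held 11084 to 84955 UMIs per library.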
